A study of Mus musculus with 10 samples.

Results

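The genes described here serve the unfolded protein response and protein folding in the endoplasmic reticulum (ER) of mouse islet cells. They are 32 genes chosen by name for their roles as ER chaperones, oxidases, degradation genes and stress factors, and all of them were found in the deposited table of 19213 gene entries. By role they comprise 5 stress sensors and transcription factors, 4 stress effectors, 11 chaperones and their cofactors, 6 disulfide isomerases and oxidases, and 6 genes of ER-associated degradation and of the translocon. Their transcripts were measured by RNA sequencing in somatostatin-secreting delta cells (2 libraries), insulin-secreting beta cells (5 libraries) and glucagon-secreting alpha cells (3 libraries) of adult mice. All animals were triple transgenic. They carried mIns1-H2b-mCherry, a nuclear red reporter under the mouse Ins1 promoter that marked beta cells, and a floxed YFP allele. The YFP was switched on by Sst-Cre where delta cells were collected and by Gcg-cre where alpha cells were collected, so a delta or alpha cell is here a cell in which that Cre had acted. For each pool the islets of 10 to 12 animals of 1 sex were combined, kept overnight at 5.5 mM glucose, dissociated with trypsin and sorted, with beta cells taken from the same islets as the delta or alpha cells. Delta replicate 1, beta replicates 1 and 3 and alpha replicates 1 and 2 came from males and the other libraries from females. The labels do not state which libraries share islets or name separate pools behind the replicates, and p-values therefore speak only for the spread between these libraries, part of which may be technical.

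Secreted and membrane proteins enter the ER through the translocon, fold with the help of chaperones and receive disulfide bonds from isomerases that are recharged by oxidases. Proteins that fail to fold are returned to the cytosol and degraded. When unfolded protein accumulates, the membrane sensors encoded by Ern1, Eif2ak3 and Atf6 signal to the nucleus: Ern1 protein splices Xbp1 mRNA, Eif2ak3 protein slows translation while favouring that of Atf4, and Atf6 is cut to release a transcription factor. Xbp1 and Atf6 are known to raise chaperone and degradation genes, and Atf4 to raise amino acid and stress genes such as Ddit3, Trib3 and Chac1. In beta cells, which make insulin in large amounts, this response is known both for sustaining secretion and for its link with beta cell failure.

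The libraries held 16688097 to 26684086 reads. At these depths a level of 1 RPKM, a read count divided by gene length and by library size, stood for 16.7 to 26.7 reads per kilobase. Sst, Ins2 and Gcg were each highest in the libraries labelled for them, with 52388 to 60770 RPKM of Sst in delta, 177833 to 363484 of Ins2 in beta and 244207 to 272196 of Gcg in alpha libraries. The delta libraries also held 21254 and 23233 RPKM of Gcg. RPKM are shares of a library, and 7 hormone genes took 9.81% and 10.6% of the reads in delta, 17.6% to 31.8% in beta and 27.5% to 30.9% in alpha libraries. Of 17 markers of acinar cells, the enzyme-secreting cells around the islets, 16 were in the table. Their sum was 917 and 1146 RPKM in delta, 246 to 12105 in beta and 108 to 3846 in alpha libraries, and Prss1 and Ptf1a were at 0 in part of the libraries. Of 10 immune cell markers 9 were in the table and 8 were tested. Against beta cells, 7 were called lower and 1 higher in delta cells, and 8 lower in alpha cells. Over all tested genes the shares were 13.3%, 37.4% and 30.3%. Their sum was 76.2 and 89.4 RPKM in delta, 115 to 221 in beta and 24.4 to 44.5 in alpha libraries, most of it in delta libraries from C1qa (57.7 and 73.5 RPKM), and Ptprc, C1qb, Lyz2 and Csf1r were at 0 in at least 1 library. Ppy and Pyy, hormones of pancreatic polypeptide cells, were highest in delta libraries. Summed with Ghrl and Sertm1, as 4 markers of pancreatic polypeptide and epsilon cells, they came to 44167 and 44801 RPKM in delta libraries. The sums were 809 to 1560.4 in beta and 9607 to 15258 in alpha libraries. Ghrl and Sertm1 themselves had their highest means in alpha libraries, at 4.55 and 7.02 RPKM against 1.34 and 1.79 in delta libraries. Summed immediate early genes stood at 1093 and 1583 RPKM in delta, 225 to 405 in beta and 354 to 587 in alpha libraries, and the part of these levels in the differences below was not tested. In bulk samples fewer cells of a type and less RNA per cell cannot be told apart.

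Alpha cells had the lowest levels of most of these genes, and delta cells the highest levels of most chaperones, while beta cells led in the stress effectors and in the oxidase Ero1lb. All 32 genes passed the filter on low values and were tested with limma on log2(RPKM + 1) with Benjamini-Hochberg adjustment over 12700 genes, which is the scale of every fold change and the source of every adjusted p below. Against beta cells, alpha cells had 27 of the 32 genes lower and 0 higher at an adjusted p under 0.05, where 30.3% of all tested genes were lower and 23.7% higher. By at least 2-fold 17 were lower and 0 higher, against 7.75% and 7.19% of all tested genes. The median log2 fold change of the 32 was -1.10, beside -0.02 over all tested genes. Against alpha cells, delta cells had 28 of the 32 higher and 1 lower, where 32.1% of all tested genes were higher and 5.89% lower, and the median was 1.12 beside 0.26. By at least 2-fold 21 were higher and 0 lower, against 9.17% and 2.73%. Between delta and beta cells the genes split, with 13 higher and 8 lower in delta cells, where 37.4% of all tested genes were higher and 13.3% lower, and the median of 0.29 lay beside 0.25 over all tested genes. By at least 2-fold 1 was higher and 4 were lower, against 12.2% and 3.85%. The share of 13 in 32 is thus near that of all genes, and only the share of lower genes, 8 in 32, is above it. The 3 comparisons share libraries, so they are not independent of each other. Delta and alpha cells came from animals with different Cre drivers, so a difference between these cell types cannot be told apart from one between those animals.

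**Figure D1:**
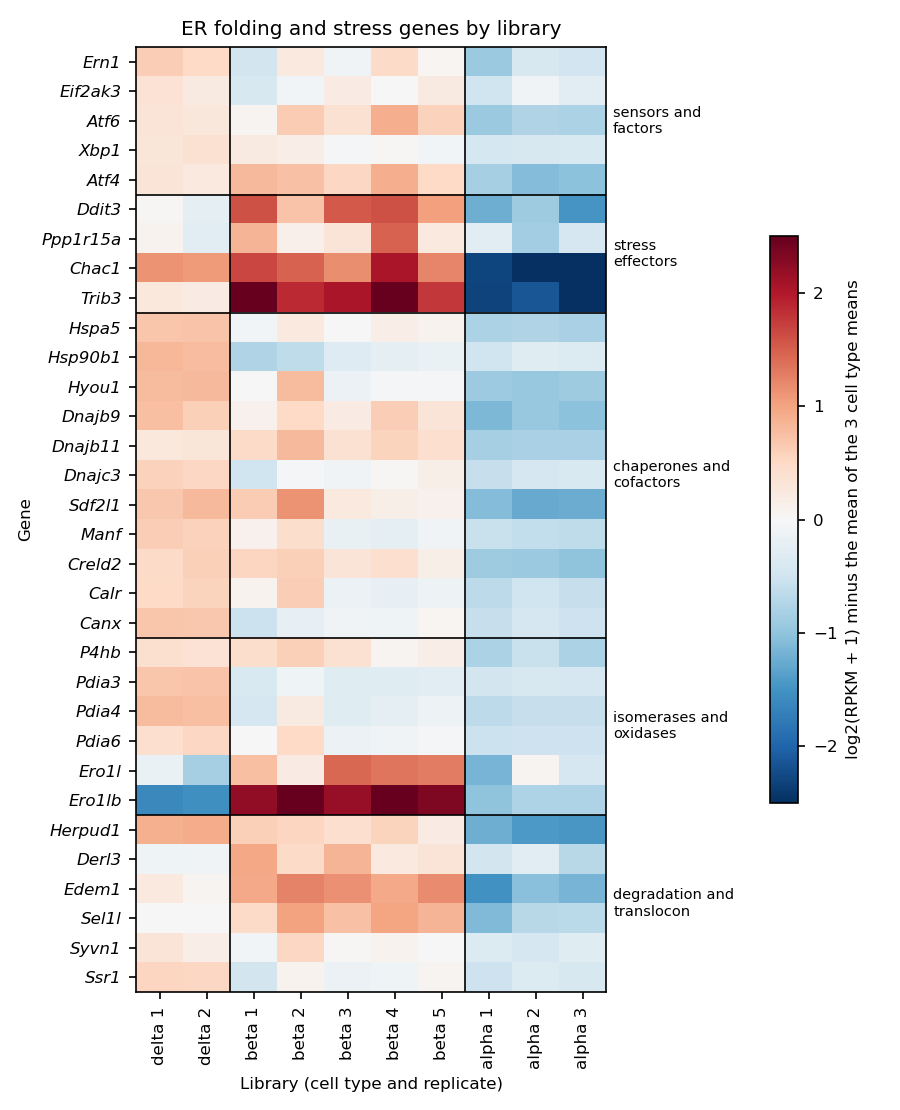
Level of each of the 32 genes in each of the 10 libraries, as log2(RPKM + 1) minus the mean of the 3 cell type means, with genes in rows by role and libraries in columns; values beyond 2.5 either way are drawn in the end colours. The alpha columns are blue in nearly all rows, the delta columns are reddest among the chaperones, and the beta columns are reddest for the stress effectors and Ero1lb.

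The mean level followed the order delta, beta, alpha for 19 genes and the order beta, delta, alpha for 10. The order was beta, alpha, delta for Ero1l and Ero1lb, and delta, alpha, beta for Hsp90b1. In 30 of the 32 genes both delta libraries lay above all 3 alpha libraries, and in 26 all 3 alpha libraries lay below all 5 beta libraries, as was so for 60% and 29.2% of all tested genes. In 12 genes both delta libraries lay above all 5 beta libraries, and in 11 below them, beside 46.4% and 16.4% of all tested genes. The count of genes higher in delta than in beta cells depended on how libraries were scaled. It was 6 with median-ratio scaling and 7 with the hormone reads left out. Over all tested genes the split moved from 4750 higher and 1692 lower to 3451 and 2851 with the hormone reads left out, and to 3068 and 3098 with median-ratio scaling. That scaling moved the median log2 fold change of all tested genes from 0.25 to -0.005, and it turned the delta minus beta difference of 5 genes negative: Xbp1 (-0.01), Sdf2l1 (-0.01), Creld2 (-0.16), P4hb (-0.25) and Syvn1 (-0.14). The count was 5 without delta replicate 1 and 8 without delta replicate 2. Hsp90b1, Canx, Pdia3 and Pdia4 were called higher in delta than in beta cells under all 18 alternatives, and Ddit3, Trib3, Ero1lb, Edem1 and Sel1l lower. The 27 genes lower in alpha than in beta cells were 24 with the hormone reads left out, 26 with median-ratio scaling and 19 without alpha replicate 3. Over all tested genes 3851 of 12700 were lower as deposited, and 3343 of 13099, 3686 of 12661 and 2788 of 12612 under these settings in the same order. Between delta and alpha cells median-ratio scaling gave 23 higher genes and the hormone-free totals 24. Over all tested genes the split went from 4076 higher and 748 lower to 1816 and 1325 with median-ratio scaling, and to 1889 and 1459 with the hormone-free totals.

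**Figure D2:**
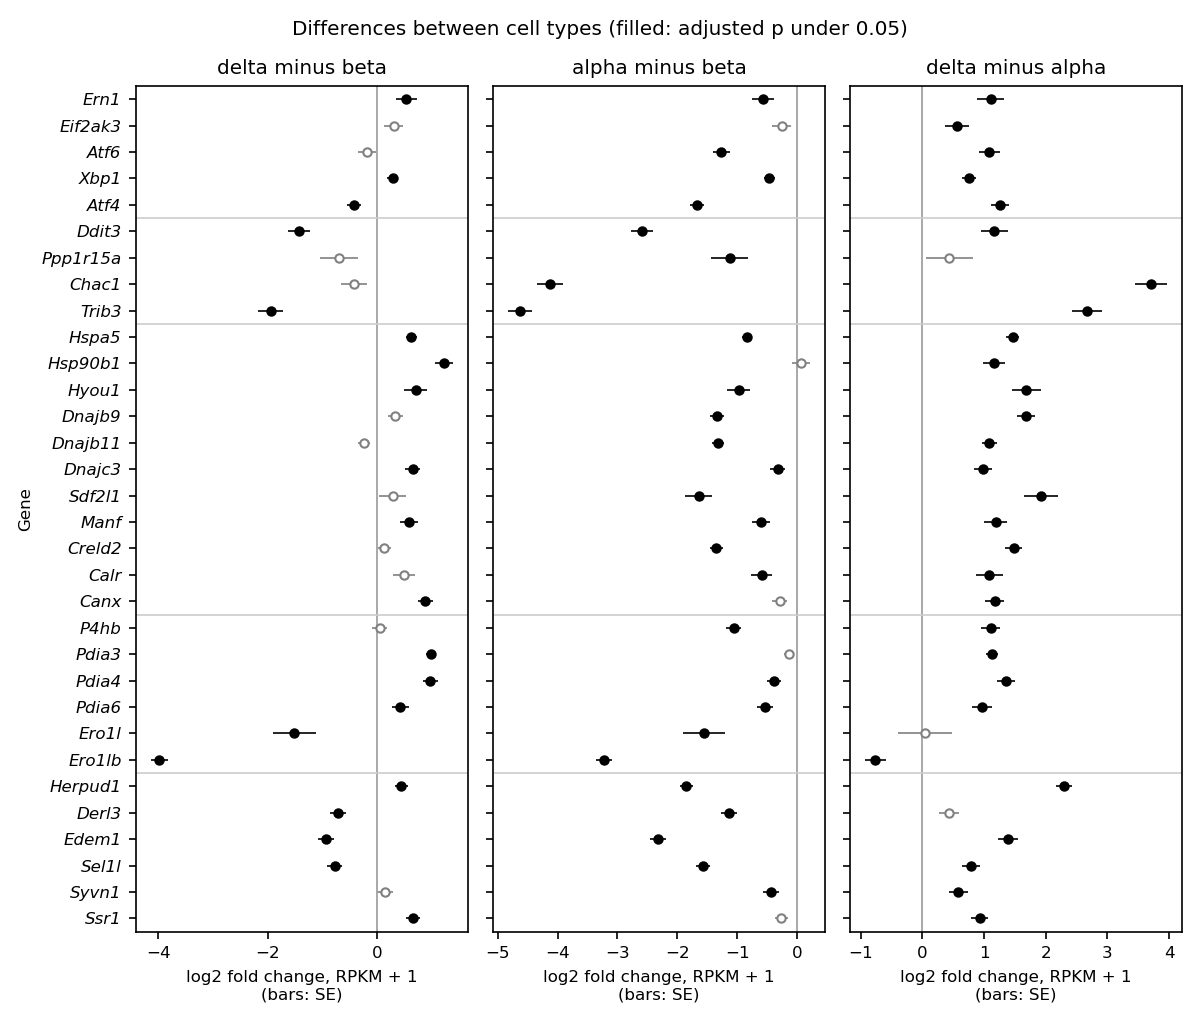
Log2 fold change of each gene, on the log2(RPKM + 1) scale, for delta minus beta, alpha minus beta and delta minus alpha, with bars for the standard error and filled points for an adjusted p under 0.05; each panel has its own axis range. Points lie on both sides of 0 for delta minus beta, to the left of 0 for alpha minus beta except for Hsp90b1 at 0.06, and to the right for delta minus alpha except for Ero1lb; with median-ratio scaling the delta minus alpha difference of Ero1l also turned to -0.25.

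Together the 32 genes took 1.92% and 1.90% of all reads in delta libraries, 1.37% to 1.69% in beta and 0.788% to 0.856% in alpha libraries. With the hormone reads left out of the totals, the shares were 2.13% and 2.12% in delta, 1.75% to 2.21% in beta and 1.14% to 1.18% in alpha libraries. The delta and beta shares overlapped on that footing, and the alpha libraries were the lowest on both. By role, the summed RPKM of the 11 chaperones and cofactors was 3990.0 and 3970.4 in delta, 2258, 2946, 2330.5, 2493 and 2477 in beta and 1528, 1640.0 and 1594 in alpha libraries. The 4 stress effectors together came to 206 and 181 in delta, 498, 317, 404, 579.5 and 330.1 in beta and 75.1, 69.1 and 63.8 in alpha libraries. Set against each other within a library, where library scaling cancels, the stress effectors amounted to 5.16 and 4.56 in delta, 22.04, 10.8, 17.4, 23.2 and 13.3 in beta and 4.91, 4.21 and 4.004 in alpha libraries per 100 RPKM of chaperones. The beta libraries were thus the highest in this ratio, without overlap, and the delta and alpha ranges overlapped.

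**Figure D3:**
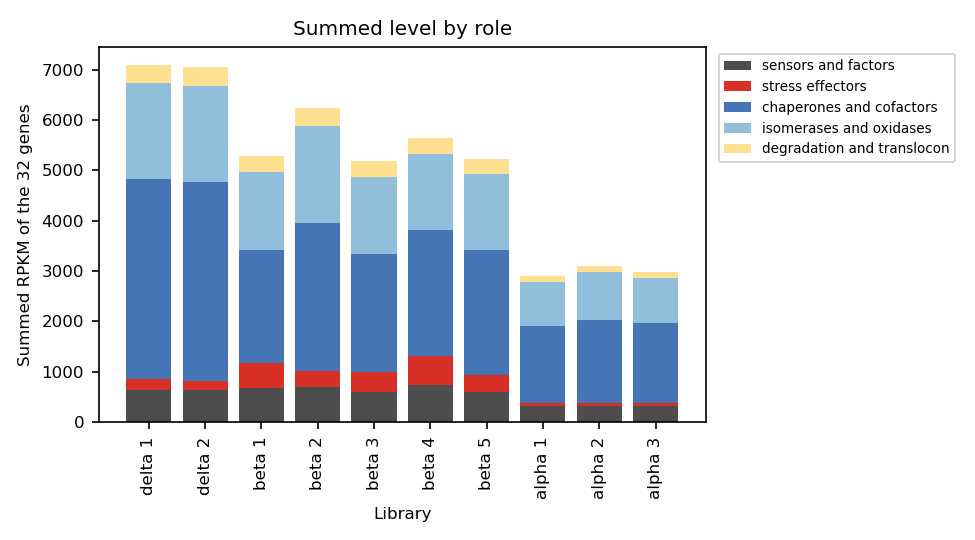
Summed RPKM of the 32 genes in each library, stacked by role. The delta bars reach 7046 and 7097 RPKM, the beta bars 5188 to 6232 and the alpha bars 2897 to 3098, and the red segment of stress effectors is widest in the beta bars.

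All 3 ER membrane sensors were called higher in delta than in alpha cells, and Ern1 and Atf6 were called lower in alpha than in beta cells. Ern1, the kinase and nuclease that splices Xbp1 mRNA (chromosome 11, 106394650 to 106487852, here and below in GRCm38), stood at 97.8 and 90.8 RPKM in the delta libraries, 46.4, 75.7, 59.9, 89.8 and 66.4 in the beta libraries and 33.2, 48.3 and 45.4 in the alpha libraries. Both delta libraries lay above all beta libraries, and the alpha and beta ranges overlapped. Ern1 was called higher in delta than in beta cells (log2 fold change 0.54, SE 0.20, adjusted p = 0.0477), a call that 14 of the 18 alternatives lost, and lower in alpha than in beta cells (-0.57, adjusted p = 0.0229), a call lost without beta replicate 3 and without alpha replicates 1 or 3. Eif2ak3, the kinase that phosphorylates the translation factor eIF2alpha (chromosome 6, 70844515 to 70905245), stood at 32.9 and 29.95 RPKM in delta, 19.2, 24.3, 29.5, 25.6 and 29.9 in beta and 17.8, 24.03 and 21.04 in alpha libraries. Its delta libraries were the highest, by a narrow margin over beta replicates 5 and 3, and it was called only between delta and alpha cells (0.56, adjusted p = 0.046), which 10 alternatives lost. Atf6, the membrane-bound transcription factor (chromosome 1, 170704674 to 170867771), was measured at 31.7 and 30.8 RPKM in delta, 26.2, 39.4, 33.03, 48.1 and 38.01 in beta and 12.8, 14.5 and 14.1 in alpha libraries. The delta values fell inside the beta range (log2 fold change -0.18), and the alpha values lay below all others (alpha minus beta log2 fold change -1.27, SE 0.14, adjusted p = 8.12e-05). With median-ratio scaling or with the hormone reads left out, Atf6 passed the threshold as lower in delta than in beta cells, with 0.018 as the smaller adjusted p.

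The transcription factors Xbp1 and Atf4 were abundant in each cell type and lowest in alpha cells, and Atf4 was called lower in delta than in beta cells. Xbp1, the factor made from the spliced mRNA (chromosome 11, 5520659 to 5525893), stood at 208 and 218 RPKM in the delta libraries, 195, 188, 162, 169.7 and 159.9 in the beta libraries and 123, 126 and 129 in the alpha libraries. The 3 ranges did not overlap. RPKM count spliced and unspliced Xbp1 mRNA alike, so its activation is not measured here. Xbp1 was called higher in delta than in beta cells as deposited (log2 fold change 0.29, SE 0.10, adjusted p = 0.0386), but the difference was -0.01 (adjusted p = 0.962) with median-ratio scaling, and 12 of the 18 alternatives lost the call. Its lower level in alpha cells was called against beta cells (-0.47, adjusted p = 0.00206). Atf4, the factor whose translation rises when eIF2alpha is phosphorylated (chromosome 15, 80255184 to 80257541), stood at 384, 364, 313, 408 and 308 RPKM across the beta libraries, against 271 and 257 in delta and 123, 102 and 107 in alpha libraries. The 3 ranges were again separate, with beta libraries the highest. Alpha cells had less Atf4 mRNA than beta cells (log2 fold change -1.67, SE 0.12, adjusted p = 4.59e-06) and than delta cells (delta minus alpha 1.25, adjusted p = 0.000173). The lower level in delta than in beta cells (-0.42, adjusted p = 0.0268) was not called without delta replicate 1, without delta replicate 2, without beta replicate 1, or with alpha libraries out of the fit.

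The stress effectors were highest in beta cells, and Ddit3, Trib3 and Chac1 were among the genes that differed most between the cell types. Ddit3, the transcription factor CHOP, known for its part in cell death under lasting ER stress, stood at 208, 114, 201, 210.1 and 141 RPKM across the beta libraries, against 69.9 and 59.04 in delta and 28.9, 36.7 and 24.2 in alpha libraries. All beta libraries were above both delta libraries, and these were above all alpha libraries. Its log2 fold change was -1.43 for delta minus beta (SE 0.20, adjusted p = 0.000415), -2.59 for alpha minus beta (SE 0.18, adjusted p = 3.88e-06) and 1.16 for delta minus alpha. Trib3, a pseudokinase induced through Atf4 and Ddit3 (chromosome 2, 152337422 to 152344032), stood at 109.6, 70.03, 79.1, 115 and 65.3 RPKM across the beta libraries, against 22.3 and 21.5 in delta and 2.89, 3.38 and 1.93 in alpha libraries. Beta cells again led without overlap, with a log2 fold change of -1.95 for delta minus beta (SE 0.22, adjusted p = 0.000111) and of -4.62 for alpha minus beta (SE 0.20, adjusted p = 1.98e-07), which was the largest difference among the 32 genes. Delta and alpha cells differed as well (2.68, adjusted p = 3.54e-05).

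Chac1, an enzyme that breaks down glutathione (chromosome 2, 119351229 to 119354381), followed a different pattern, not far below the beta level in delta cells and low in alpha cells. It stood at 64.2 and 61.8 RPKM in the delta libraries, 94.3, 82.5, 66.4, 122 and 68.5 in the beta libraries and 5.11, 3.89 and 3.03 in the alpha libraries. The highest delta value lay below the lowest beta value, and the difference was not called as deposited (delta minus beta log2 fold change -0.42, SE 0.24, adjusted p = 0.163). The alpha values lay far below both (alpha minus beta log2 fold change -4.13, SE 0.21, adjusted p = 5.94e-07; delta minus alpha 3.71, adjusted p = 7.15e-06). Ppp1r15a, the eIF2alpha phosphatase subunit GADD34 that ends the translational block (chromosome 7, 45522916 to 45526268), stood at 49.7 and 38.8 RPKM in delta, 85.4, 50.9, 58.4, 132 and 55.05 in beta and 38.2, 25.2 and 34.7 in alpha libraries. Its beta libraries varied the most of the 32 genes, with a coefficient of variation of 44.5%. It was called lower in alpha than in beta cells (-1.13, adjusted p = 0.0136), which was lost without alpha replicate 2 or 3. The lower values in delta than in beta cells were not called as deposited (adjusted p = 0.126). Apart from the replicate block, they passed only with median-ratio scaling (adjusted p = 0.0491). With that block as fixed terms, all 4 stress effectors were called lower in delta than in beta cells. That fit was added after seeing the data and had 2 residual degrees of freedom.

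**Figure D4:**
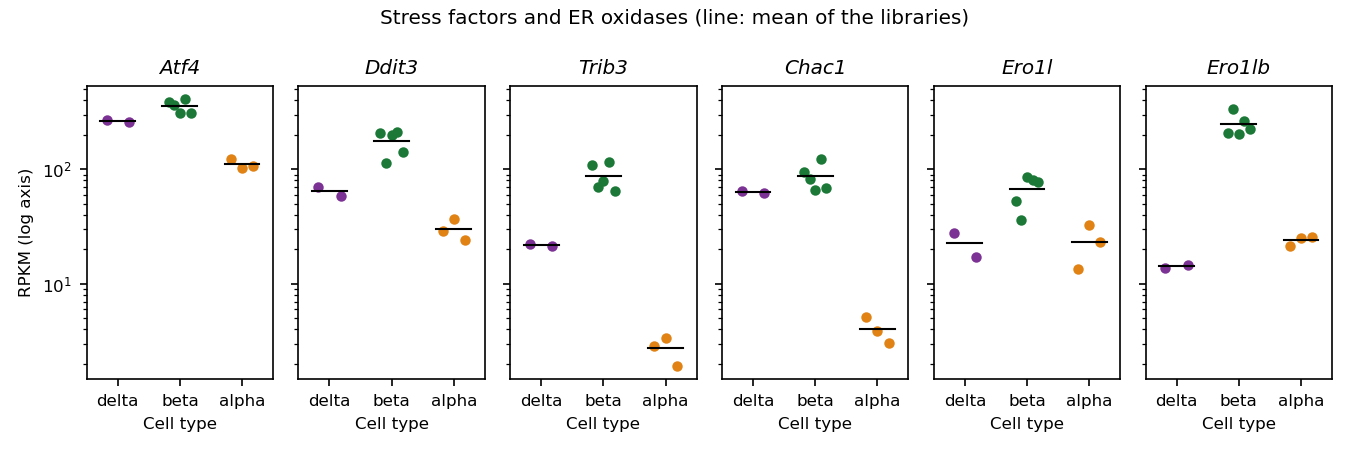
RPKM of Atf4, Ddit3, Trib3, Chac1, Ero1l and Ero1lb in each library on a shared log axis, with points for libraries and lines for cell type means. Beta libraries are the highest in every panel; delta libraries come next for the first 4 genes and are the lowest for Ero1lb.

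Ratios between genes of a library do not depend on the library total. For 100 RPKM of Atf4, a library held 8.21 and 8.36 in delta, 28.5, 19.2, 25.2, 28.3 and 21.2 in beta and 2.36, 3.301 and 1.802 in alpha libraries RPKM of Trib3. The beta libraries were highest and the alpha libraries lowest, without overlap. The same ratio for Chac1 was 23.7 and 24.1 in delta, 24.6, 22.7, 21.2, 29.8 and 22.3 in beta and 4.17, 3.796 and 2.83 in alpha libraries. Here the delta values lay inside the beta range and only the alpha libraries stood apart. The level of Ddit3 per 100 RPKM of Hspa5 was 6.39 and 5.34 in delta, 32.2, 14.2, 29.8, 27.8 and 19.6 in beta and 7.43, 9.16 and 6.23 in alpha libraries. The beta libraries were again the highest, while the delta and alpha ranges overlapped. The summed immediate early genes, which include transcripts that tissue dissociation is known to raise, were highest in delta libraries, where the 4 stress effectors were all below the beta libraries. Summed immune markers were highest in the beta libraries, as the stress effectors were. The part of either list in these levels was not tested.

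**Figure D5:**
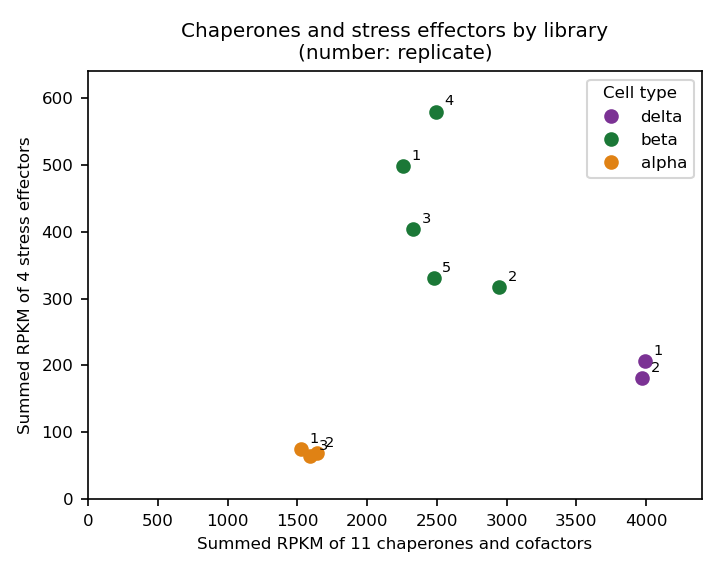
Summed RPKM of the 4 stress effectors against summed RPKM of the 11 chaperones and cofactors, with 1 point for each library and its replicate number beside it. Delta libraries lie at the highest chaperone sums and at 181 to 206 RPKM of stress effectors, beta libraries at 317 to 580 RPKM of stress effectors, and alpha libraries lowest on both axes.

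The chaperones and cofactors had their highest mean RPKM in delta cells, except for Dnajb11, and their lowest in alpha cells, except for Hsp90b1. Against alpha cells 11 of 11 were called higher in delta cells, 10 of them by at least 2-fold, and against beta cells 9 of 11 were called lower in alpha cells, beside 32.1%, 9.17% and 30.3% of all tested genes. Between delta and beta cells 6 were called higher in delta and 0 lower as deposited, 4 higher and 1 lower with the hormone reads left out, and 3 higher and 1 lower with median-ratio scaling. Over all tested genes 37.4% were called higher in delta cells as deposited, 3451 of 13099 with the hormone reads left out and 3068 of 12661 with median-ratio scaling. Without delta replicate 1, which leaves 1 delta library, fewer of the 11 were called. Their median log2 fold change was then 0.50, beside 0.59 as deposited. Hspa5 (BiP), the main ER chaperone of the Hsp70 family and the partner that keeps the sensors silent (chromosome 2, 34771970 to 34777547), was the most abundant of the genes in delta and beta cells. It stood at 1093 and 1106 RPKM in the delta libraries, 648, 802, 673, 755 and 719 in the beta libraries and 389, 400.2 and 388 in the alpha libraries. The ranges were separate, with log2 fold changes of 0.63 for delta minus beta (SE 0.10, adjusted p = 0.000768, and 0.088 with median-ratio scaling) and -0.84 for alpha minus beta (SE 0.09, adjusted p = 4.73e-05). Hsp90b1 (GRP94), the ER chaperone of the Hsp90 family (chromosome 10, 86690209 to 86705509), stood at 1024 and 977 RPKM in the delta libraries, 342, 372, 463, 489 and 515 in the beta libraries and 409, 465 and 455 in the alpha libraries. Delta libraries were the highest by far, and alpha and beta libraries overlapped. It had the largest called increase from beta to delta cells among the 32 genes (log2 fold change 1.22, SE 0.16, adjusted p = 0.000281), and the alpha minus beta difference was 0.06 (SE 0.14, adjusted p = 0.725). Of its annotated exon bases, 10.3% are shared with the antisense gene 1810014B01Rik, whose reads the unstranded libraries do not separate; none of the other genes shares as large a part with another gene.

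The lectin chaperones Calr and Canx, which hold glycoproteins until they fold, and the cofactors of Hspa5 likewise had their highest mean RPKM in delta cells as deposited, with the exception of Dnajb11, although with median-ratio scaling Creld2 and Sdf2l1 did not. Canx, the membrane-bound lectin (chromosome 11, 50293961 to 50325673), stood at 258 and 252 RPKM in the delta libraries, 108, 138, 148, 146 and 164 in the beta libraries and 106, 118 and 110.4 in the alpha libraries. Both delta libraries were above all others (log2 fold change 0.88, SE 0.14, adjusted p = 0.000789 for delta minus beta), and the alpha and beta ranges overlapped at the low end. Calr, the soluble lectin (chromosome 8, 84841850 to 84846934), stood at 603 and 635 RPKM in delta, 458, 656, 389.9, 371 and 392 in beta and 274, 303 and 289 in alpha libraries. Beta replicate 2 exceeded both delta libraries, and the delta minus beta difference was not called (adjusted p = 0.0682, and 0.00197 without beta replicate 2). Hyou1, the GRP170 chaperone that exchanges nucleotide on Hspa5 (chromosome 9, 44379490 to 44392369), stood at 285 and 291 RPKM in delta, 164, 286, 148, 162 and 159 in beta and 87.3, 85.01 and 88.3 in alpha libraries. The same beta library reached the delta level, while the other beta libraries lay well below it. The call of higher Hyou1 in delta cells (0.71, adjusted p = 0.021) was lost with either change of scaling and without either delta library, and the lower level in alpha cells was called against beta cells (-0.98, adjusted p = 0.00212). Manf, an ER protein that binds Hspa5 and is known to protect beta cells (chromosome 9, 106838312 to 106891979), stood at 171 and 167 RPKM in delta, 121, 152, 97.8, 94.7 and 105 in beta and 76.1, 72.6 and 71.7 in alpha libraries. The 3 ranges were separate; delta minus beta was 0.59, adjusted p = 0.018, lost under the same alternatives as for Hyou1.

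Among the J-domain cofactors that deliver clients to Hspa5, Dnajb9 stood at 234 and 207 RPKM in delta, 148, 196, 159.5, 213 and 174 in beta and 63.1, 71.5 and 67.1 in alpha libraries. Delta replicate 2 lay just below the highest beta library, and alpha libraries were far lower (alpha minus beta -1.34, adjusted p = 1.73e-05). Dnajb11, another of these cofactors, stood at 37.3 and 38.3 RPKM in delta, 43.1, 54.8, 40.6, 45.7 and 41.6 in beta and 16.8, 17.2 and 17.2 in alpha libraries. Its beta libraries were the highest, without overlap with delta libraries, although that difference was not called as deposited (adjusted p = 0.103). Apart from the replicate block, it was called only under the changes of scaling (smallest adjusted p 0.0184). Dnajc3, which also acts on Eif2ak3 signalling, lay at 106 to 109 RPKM in delta, 51.8 to 81.3 in beta and 48.7 to 55.9 in alpha libraries, and was called higher in delta than in beta cells (0.65, adjusted p = 0.0034, and 0.0724 without delta replicate 1). Sdf2l1, a cofactor of the J-domain proteins, stood at 97.2 and 107 RPKM in delta, 94.5, 134, 72.6, 67.8 and 65.9 in beta and 28.2, 24.97 and 25.05 in alpha libraries. Beta replicate 2 was above both delta libraries, and the alpha values were the lowest (alpha minus beta -1.64, adjusted p = 0.000273). Creld2, an ER protein with isomerase-like activity, stood at 76.8 and 83.2 RPKM in delta, 79.5, 83.03, 69.1, 73.4 and 60.8 in beta and 29.3, 28.2 and 26.9 in alpha libraries. Delta and beta values overlapped (log2 fold change 0.13), and alpha values lay below all of them (-1.35, adjusted p = 9.66e-06).

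A known stress response sequence was found in a larger share of these genes' promoters than of promoters at large. The ER stress response element, CCAAT and CCACG separated by 9 bases and known as a binding sequence of NF-Y with Atf6 or Xbp1, was searched on both strands from 250 bases before to 50 bases after each gene's start in RefSeq's GRCm38.p6 annotation. Of the 32 genes 29 had a promoter entry, all but Atf6, Hyou1 and Manf. The element was found in 10 of the 29 (34.5%) and in 37 of 27025 genes in all (0.137%). A shorter element, ATTGG and CCACG separated by 1 base, was found in 2 of the 29 (6.9%), Herpud1 and Dnajb11, against 12 genes in all (0.0444%). CCAAT alone, which the first element contains, was found in 23 of the 29 (79.3%) and in 41.1% of all genes. Since such genes helped to define the element, the counts describe the genes and are no test, and a match is not a measured binding site. The stretches below come from genes of unlike expression: Hspa5, Hsp90b1 and Canx were called higher in delta than in beta cells, Creld2 and Syvn1 were not called, and Ero1lb and Derl3 were called lower. They are read 5′ to 3′ on the strand of the gene, with the bases of the element in capitals (CCAAT and CCACG, or CGTGG and ATTGG where the element runs on the other strand).
Hspa5, chr2:34772020-34772048, plus strand: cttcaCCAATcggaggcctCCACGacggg
Hsp90b1, distal match, chr10:86705626-86705668, minus strand: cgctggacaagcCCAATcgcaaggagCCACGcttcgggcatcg
Hsp90b1, proximal match, chr10:86705521-86705563, minus strand: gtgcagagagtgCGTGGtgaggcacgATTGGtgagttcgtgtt
Canx, chr11:50325788-50325830, minus strand: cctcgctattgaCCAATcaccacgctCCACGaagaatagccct
Creld2, chr15:88819508-88819550, plus strand: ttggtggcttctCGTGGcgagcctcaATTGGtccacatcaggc
Syvn1, chr19:6046520-6046562, plus strand: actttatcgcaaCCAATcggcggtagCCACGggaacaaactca
Ero1lb, chr13:12565670-12565712, plus strand: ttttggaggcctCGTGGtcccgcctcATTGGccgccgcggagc
Derl3, chr10:75893230-75893272, plus strand: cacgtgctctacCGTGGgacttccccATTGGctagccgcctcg
Herpud1, shorter element, chr8:94386365-94386399, plus strand: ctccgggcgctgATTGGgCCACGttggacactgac

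Counted from the RefSeq start, the first base of the element lay 65 bases before Hspa5, 212 and 107 before Hsp90b1, 145 before Canx, 126 before Creld2, 44 before Syvn1, 201 before Ero1lb and 156 before Derl3. The gene spans given with the genes come from GENCODE, which starts Hspa5 further upstream, so its stretch lies inside the span printed for it. The others with the element were Dnajc3, Calr and Pdia6. Of the 10 genes with the element, delta cells had 5 called higher and 2 lower than beta cells, and alpha cells had 8 lower, where 37.4%, 13.3% and 30.3% of all tested genes were called. Against alpha cells, delta cells had 8 higher and 1 lower, beside 32.1% and 5.89%. Genes with the element thus lay on both sides of the comparison of delta with beta cells. Outside the 32 genes 27 others held the element, of which 6 were tested, with 3 higher and 0 lower than beta cells both in delta and in alpha cells. The composite element bound by Atf4 with a C/EBP partner, searched as TGATGCAA on both strands, was found in Chac1 and Herpud1 (2 of 29, 6.9%) and in 279 of all genes (1.03%). Both genes carry it on the other strand, shown in capitals with its surroundings because they had the lowest alpha levels relative to delta cells among the effectors and among the degradation genes. No promoter of the 29 held TGACGTGG, the core of the element bound by Xbp1 with Atf6, which was present in 0.714% of all genes, and its absence from this window says nothing about either factor.
Chac1, chr2:119351037-119351068, plus strand: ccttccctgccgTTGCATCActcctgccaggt
Herpud1, chr8:94386305-94386336, plus strand: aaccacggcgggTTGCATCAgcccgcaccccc

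Of the 4 disulfide isomerases, 3 were called higher in delta than in beta cells as deposited (2 with median-ratio scaling), whereas both oxidases that recharge them were called lower. Over all tested genes 37.4% were higher and 13.3% lower as deposited, and 3068 and 3098 of 12661 with median-ratio scaling. P4hb (PDI), the best known isomerase (chromosome 11, 120560298 to 120573253), stood at 581 and 569 RPKM in the delta libraries, 601, 663, 574, 460.2 and 492 in the beta libraries and 255, 301 and 256 in the alpha libraries. Delta values lay inside the beta range (log2 fold change 0.04) and alpha values were lower (alpha minus beta log2 fold change -1.06, SE 0.13, adjusted p = 0.000124). Pdia3 (ERp57), the isomerase that works with Calr and Canx on glycoproteins (chromosome 2, 121413775 to 121438687), stood at 803 and 812 RPKM in the delta libraries, 381, 457, 399.8, 401 and 413 in the beta libraries and 359.6, 373 and 368 in the alpha libraries. Delta libraries were nearly alike and above all others (delta minus beta log2 fold change 0.98, SE 0.09, adjusted p = 2.47e-05), and beta libraries lay above alpha libraries by a margin that was not called (adjusted p = 0.164). Pdia4 (ERp72), an isomerase with additional catalytic domains (chromosome 6, 47796141 to 47813430), stood at 169.7 and 165 RPKM in delta, 72.2, 114, 78.02, 82.1 and 88.97 in beta and 61.4, 64.3 and 64.8 in alpha libraries. It was called higher in delta than in beta cells (log2 fold change 0.97, SE 0.14, adjusted p = 0.000452). Pdia6 lay at 302 to 327 RPKM in delta, 205 to 321 in beta and 157 to 159 in alpha libraries, and its call of a higher level in delta than in beta cells (0.43, adjusted p = 0.0407) was lost in 13 of the 18 alternatives. Lower Pdia4 and Pdia6 in alpha than in beta cells were called as well, the first lost with either change of scaling or without alpha replicates 1 or 3, the second without alpha replicate 3.

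Ero1lb, the ER oxidase known for its abundance in pancreatic islets (chromosome 13, 12565874 to 12611396), had the largest difference between delta and beta cells among the 32 genes. It stood at 209, 333, 202, 264 and 226 RPKM across the beta libraries, against 13.7 and 14.6 in delta and 21.4, 25.3 and 25.5 in alpha libraries. All beta libraries were far above both other types, and both delta libraries were below all alpha libraries. The log2 fold change was -3.98 for delta minus beta (SE 0.15, adjusted p = 1.05e-07) and -3.22 for alpha minus beta (SE 0.13, adjusted p = 1.54e-07). It was the 1 gene called lower in delta than in alpha cells (-0.76, adjusted p = 0.00579), a call lost without delta replicate 2 (adjusted p = 0.0641). Ero1l, the widely expressed oxidase that hypoxia is known to raise (chromosome 14, 45283087 to 45318771), stood at 53.2, 36.3, 85.9, 81.1 and 77.98 RPKM across the beta libraries, against 27.9 and 17.3 in delta and 13.4, 32.7 and 23.2 in alpha libraries. Beta libraries were above all others, from the lowest, replicate 2, upward, and delta and alpha ranges overlapped. Both differences from beta cells were called (delta minus beta log2 fold change -1.51, SE 0.40, adjusted p = 0.012, lost without delta replicate 2; alpha minus beta -1.55, adjusted p = 0.00529). Of the RPKM of both oxidases together, Ero1lb made up 32.99 and 45.9 in delta, 79.7, 90.2, 70.2, 76.5 and 74.4 in beta and 61.5, 43.6 and 52.3 in alpha libraries in percent. The beta libraries were the highest, without overlap, also on this measure, which library scaling does not change.

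The genes of ER-associated degradation were low in alpha cells without exception, and in delta cells they fell on both sides of the beta level. Herpud1, which organizes the degradation complex at the membrane (chromosome 8, 94386438 to 94395377), stood at 225 and 231 RPKM in the delta libraries, 183, 175, 162, 179.5 and 140.4 in the beta libraries and 51.5, 44.1 and 43.4 in the alpha libraries. The ranges did not overlap, and alpha cells held the lowest level (alpha minus beta log2 fold change -1.85, SE 0.11, adjusted p = 1.09e-06; delta minus alpha 2.29, adjusted p = 1.93e-06). The higher level in delta than in beta cells (0.44, adjusted p = 0.0132) was lost with either change of scaling and without either delta library. Edem1, a lectin that picks out misfolded glycoproteins (chromosome 6, 108828641 to 108859356), stood at 31.1, 38.5, 35.9, 30.9 and 36.5 RPKM across the beta libraries, against 18.7 and 16.4 in delta and 4.83, 7.04 and 6.43 in alpha libraries. Beta libraries were the highest and alpha libraries the lowest, without overlap (delta minus beta log2 fold change -0.93, SE 0.15, adjusted p = 0.000811; alpha minus beta -2.33, adjusted p = 1.02e-06). Sel1l, the adaptor of the ubiquitin ligase Syvn1 (chromosome 12, 91806043 to 91849157), stood at 40.8, 59.1, 48.7, 58.5 and 52.8 RPKM across the beta libraries, against 28.97 and 29.3 in delta and 12.9, 17.5 and 17.8 in alpha libraries. It had the same order without overlap (delta minus beta log2 fold change -0.78, SE 0.13, adjusted p = 0.00133; alpha minus beta -1.57, adjusted p = 6.6e-06). Its partner Syvn1 lay at 27.2 to 30.1 RPKM in delta, 22.8 to 34.6 in beta and 17.6 to 19.4 in alpha libraries, and was called lower in alpha than in beta cells (-0.44, adjusted p = 0.0182), though not with the hormone reads left out or without alpha replicates 2 or 3. Sel1l and Syvn1, whose proteins form 1 complex, thus differed unlike each other between delta and beta cells, with log2 fold changes of -0.78 and 0.15; this difference between genes was not tested.

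Derl3, a derlin of the channel through which misfolded proteins leave the ER (chromosome 10, 75893413 to 75895941), was the least abundant of the 32 genes. It stood at 3.23, 2.02, 2.91, 1.58 and 1.71 RPKM across the beta libraries, against 1 and 1.05 in delta and 0.583, 0.798 and 0.343 in alpha libraries. Beta libraries were above delta libraries and these above alpha libraries, and the difference from beta cells was called in delta (-0.71, adjusted p = 0.00348, and 0.0911 without delta replicate 1) and in alpha cells (-1.14, adjusted p = 8.58e-05). Near 1 RPKM the log2(RPKM + 1) scale understates such differences. The 2 beta libraries with the highest Derl3, replicates 1 and 3, had summed acinar markers of 12105 and 2396 RPKM, and the others 542, 246 and 5019 RPKM; the part of acinar RNA in the Derl3 level was not tested. Ssr1, a translocon-associated protein that helps chains into the ER, lay at 58.4 to 59.2 RPKM in delta, 29.1 to 43.1 in beta and 27.9 to 31.4 in alpha libraries. It was called higher in delta than in beta cells (0.66, adjusted p = 0.00232, and 0.0519 without delta replicate 1), and the alpha and beta ranges overlapped.

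Over the 5 beta libraries the median coefficient of variation of the 32 genes was 17.7%, beside 12.9% over 5889 genes with a beta mean of at least 10 RPKM, a difference that was not tested. Of the 31 genes at that level (all but Derl3), 23 lay above 12.9% and 8 below it. After Ppp1r15a the most variable were Sdf2l1 (33.0%), Derl3 (32.2%), Ero1l (31.8%) and Hyou1 (31.3%), and the least variable Pdia3 (6.92%). Beta replicate 2, a female library, held the highest chaperone sum and the lowest stress effector sum of the 5, and beta replicate 4, also female, the highest stress effector sum. Sex was a term in the fit of all libraries and was tested there. None of the 32 genes was called between sexes by limma with Benjamini-Hochberg adjustment (0 called, 3 at an unadjusted p under 0.05, smallest adjusted p 0.77 for Atf6), where 0.0472% of all tested genes were. For the interaction of sex with the alpha to beta difference, 0 of the 32 genes and 0% of all tested genes were called, with 0 of the 32 at an unadjusted p under 0.05. Alpha cells had 1 female library and delta cells 1 library of each sex, so differences between sexes within a cell type were hardly measurable here.

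Other genes of the same pathways were also mostly lower in alpha cells, with a smaller median difference than the 32 genes. Of 98 further ER genes in the table, 95 were tested. Between alpha and beta cells 56 of the 95 were lower and 9 higher in alpha cells, with a median log2 fold change of -0.42, and between delta and alpha cells 58 were higher and 0 lower in delta cells, with a median of 0.56. The shares of all tested genes were 30.3% and 23.7% in the first comparison and 32.1% and 5.89% in the second. Between delta and beta cells 34 were higher and 17 lower, near the 37.4% and 13.3% of all tested genes, with a median of 0.14 beside 0.25. Among 18 further chaperones and glycan-processing genes, delta cells had 11 higher and 1 lower than beta cells, against those same shares of all genes. The proline isomerase genes Fkbp11 (1.40) and Fkbp14 (1.56) had the largest increases on the log2 scale, and the glucosidase subunit Prkcsh (-0.42) was the lower gene. In alpha cells 11 of these 18 were lower and 4 higher than in beta cells, among the lower Prkcsh (-1.32) and Fkbp11 (-1.09), among the higher Fkbp14 (1.002) and the folding sensor Uggt2 (1.06). Delta minus alpha differences were largest for Fkbp11 (2.49) and the Hsp70 relative Hspa13 (1.54).

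Fkbp11 stood at 62.1 and 70.7 RPKM in the delta libraries, 29.9, 38.8, 20.8, 20.4 and 17.97 in the beta libraries and 11.6, 10.1 and 11.1 in the alpha libraries. Its delta libraries were above all beta libraries and these above all alpha libraries. Of 14 tested thiol oxidoreductases delta cells had 6 higher and 2 lower than beta cells, which is near the 37.4% and 13.3% of all tested genes. Prdx4, the ER peroxiredoxin that uses peroxide to make disulfides, stood at 67.8 and 68.9 RPKM in delta, 22.6, 16.6, 24.1, 16.9 and 20.5 in beta and 51.5, 57.5 and 47.4 in alpha libraries. It was thus lowest where Ero1lb was highest, with called differences of 1.70 (SE 0.12, adjusted p = 4.19e-06) for delta minus beta and 1.28 (SE 0.11, adjusted p = 1.19e-05) for alpha minus beta. Txndc5, an isomerase relative, was higher in delta than in beta cells as well (1.10, adjusted p = 0.000317), while Qsox1, a secretory pathway sulfhydryl oxidase (-0.51), and Txndc12 (-0.29) were lower. Against beta cells 4 of the 14 were lower in alpha cells, led by Erp29 (-1.19) and Txndc12 (-0.48), and 2 were higher, Prdx4 and the peroxidase gene Gpx7 (0.95), where 30.3% of all tested genes were lower and 23.7% higher. Of the 5 called higher in delta than in alpha cells, Erp29 (1.37) and Erp44 (1.04), which retains Ero1 oxidases in the ER, led.

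Of 21 further genes of ER-associated degradation, 15 were lower and 0 higher in alpha than in beta cells, and delta cells had 15 higher and 0 lower than alpha cells, beside 30.3%, 23.7%, 32.1% and 5.89% of all tested genes. Derl1, a derlin with a higher RPKM than Derl3 in every library, stood at 50.5 and 50.5 RPKM in the delta libraries, 84.7, 85.4, 76.7, 86.5 and 75.1 in the beta libraries and 23.7, 25.2 and 25.1 in the alpha libraries. The ranges were separate in the order beta, delta, alpha (delta minus beta -0.68, adjusted p = 0.000221; alpha minus beta -1.68, adjusted p = 2.86e-07). Between delta and beta cells 6 of the 21 were higher, led by Os9 (0.64) and Rnf139 (0.50), and 5 lower, led by Derl1 and Derl2 (-0.46), beside 37.4% and 13.3% of all tested genes. Vimp, a selenoprotein partner of the derlins, was lower in alpha than in beta cells (-0.92). Of 14 genes of the translocon and signal peptidase, 8 were lower and 0 higher in alpha than in beta cells, led by the signal recognition particle receptor gene Srpr (-0.98) and by Tram1 (-0.93). In delta cells 4 of the 14 were higher and 0 lower than in beta cells, led by Ssr2 (0.73), a partner of Ssr1, and Sec63 (0.61), and 10 were higher than in alpha cells, led by Spcs2 (1.11) and Tram1 (1.08). The 4 of 14 are a smaller share than the 37.4% of all tested genes.

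Of 28 tested genes of stress signalling and its targets, 18 were lower and 3 higher in alpha than in beta cells, and delta cells had 17 higher and 0 lower than alpha cells, beside 30.3%, 23.7%, 32.1% and 5.89% of all tested genes. Phgdh, the first enzyme of serine synthesis, stood at 8.46 and 8.61 RPKM in delta, 24.2, 16.5, 13.6, 23.4 and 14.5 in beta and 0.4804, 0.443 and 0.337 in alpha libraries. The beta libraries were the highest and the alpha libraries the lowest, without overlap (alpha minus beta -3.75, adjusted p = 6.78e-07). Mthfd2, a mitochondrial folate enzyme, had a delta minus alpha difference of 2.83 (adjusted p = 2.55e-06). Creb3l1, an ER-bound transcription factor related to Atf6, stood at 58.7 and 64.3 RPKM in delta, 31.9, 39.5, 31.3, 27.2 and 27.4 in beta and 2.08, 1.800 and 1.36 in alpha libraries. Delta libraries were above all beta libraries, and alpha libraries were far below them (delta minus alpha log2 fold change 4.53, SE 0.17, adjusted p = 3.15e-07; alpha minus beta -3.58, adjusted p = 1.09e-07). Among the 3 higher in alpha than in beta cells were Eif2ak2 (0.79) and Eif2ak4 (0.62), the eIF2alpha kinases of viral and of amino acid stress.

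Between delta and beta cells 7 of the 28 were higher and 9 lower, beside 37.4% and 13.3% of all tested genes. Nupr1, a stress-induced chromatin protein, was the gene with the largest decrease (log2 fold change -3.50, SE 0.88, adjusted p = 0.0098), at 73.3 and 42.8 RPKM in delta, 1076, 254, 746, 674 and 686 in beta and 11.9, 185 and 76.5 in alpha libraries. Its values varied widely within beta and alpha cells, and in both the library with the most acinar marker RNA (beta replicate 1 and alpha replicate 2) had the most Nupr1. Summed acinar markers were 12105, 542, 2396, 246 and 5019 RPKM in beta replicates 1 to 5. They were 108, 3846 and 927 RPKM in alpha replicates 1 to 3. Below the highest library, the beta libraries did not keep the same order in both. The part of acinar RNA was not tested. Stc2, a secreted glycoprotein raised by Atf4, was also lower in delta cells (-1.66). Atf3, a stress and immediate early factor, was higher in delta than in beta cells (1.62, adjusted p = 0.0031), unlike Ddit3, at 35.6 and 13.2 RPKM in delta, 6.87, 3.87, 7.097, 7.14 and 6.79 in beta and 5.06, 7.37 and 7.86 in alpha libraries. Delta replicate 1 lay well above replicate 2, as did its sum of immediate early genes, a list that includes Atf3 (1583 against 1093 RPKM), and the part of that response in the level was not tested. Crebrf, a regulator of Creb3 factors, was higher as well (1.29).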

How the data were processed

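Per the labels' protocols, sorted islet cells were lysed in Trizol and sequenced from TruSeq RNA v2 libraries, an unstranded kit. The authors deposited RPKM values, read counts divided by gene length and library size, in 1 table of 10 libraries. STAR 2.4, featureCounts and edgeR 3.12.0 with the build GRCm38.p3 are named in the submitters' processing notes. Neither the annotation nor the treatment of ambiguous reads is given in the sources used here. Library totals were recovered from the steps of low RPKM values.

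Genes with at least 1 RPKM in at least 2 libraries (12700) were tested as log2(RPKM + 1) in limma 3.58.1 (R 4.3.3) with a mean-variance trend, with cell type and sex as terms, in 1 fit of all 10 libraries with 6 residual degrees of freedom. The interaction of sex and cell type was fitted in the 8 beta and alpha libraries. P-values were Benjamini-Hochberg adjusted over all tested genes, and a gene was called at an adjusted p under 0.05. Alternatives were a pseudocount of 0.1, no filter, a filter at 5 RPKM, median-ratio scaling, totals without 7 hormone genes, no sex term, only the cell types compared, no trend, each library left out and, added after seeing the data, a replicate block. Leaving out 1 delta library leaves a lone sample that is assumed to vary like the other groups.

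The 32 genes, the role groups, the lists of further genes and the motifs were chosen with earlier results of these data known. Values in every library are given for genes called with a change of at least 2-fold either way in any comparison, for the 5 sensors and factors and for the 2 most abundant of each role; of further genes, up to 2 called genes with the largest change in each direction per list and comparison are named. Which of these have values shown in every library was chosen after they were seen. Of the 99 further genes listed, 98 were in the table. Gene coordinates are 1-based from GENCODE M21 by symbol; Ddit3 has 2 overlapping entries there and is given none. Promoters were taken from RefSeq (GRCm38.p6), in which Ero1l and Ero1lb are Ero1a and Ero1b. Protein sequences were not used here.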

Additional observations from a re-analysis of the deposited data

Results flagged for a closer look

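In 3 of the 32 genes, 1 beta library stood apart from the other 4 by Dixon's criterion for 5 values, and in each it was beta replicate 2 with the highest value. Hyou1 was at 286.2 RPKM there, with 163.9 RPKM as the next value and a gap of 0.884 of the whole range. Pdia6 was at 321.0 RPKM, with 228.6 RPKM as the next value and a gap of 0.793 of the range. Syvn1 was at 34.64 RPKM, with 25.53 RPKM as the next value and a gap of 0.772 of the range. Chance alone singles out about 1 in 20 such groups, and 32 were examined. The cause was not tested. Among the beta libraries Calr and Sdf2l1 were highest in it as well, and both passed as higher in delta than in beta cells without it (adjusted p = 0.00197 and 0.0271 by limma).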

How the results depend on the processing

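Of 18 alternatives (a replicate block is given separately), median-ratio scaling moved the count of genes higher in delta than in beta cells from 13 to 6, and totals without hormone reads to 7. Leaving out 1 library gave 5 (without delta replicate 1) to 14 (without beta replicate 2). Both scalings lower delta values relative to those of beta and alpha cells. Over all tested genes the count higher in delta than in beta cells fell as well, from 4750 as deposited to 3068 with median-ratio scaling and 3451 without hormone reads. It also fell without either delta library. Lower genes in that comparison numbered 6 to 8 with 1 library left out and 7 to 11 otherwise. The count lower in alpha than in beta cells was 19 to 30 with 1 library left out and 24 to 29 otherwise, and the count higher in delta than in alpha cells 25 to 28 and 23 to 29. Ero1lb, the 1 gene lower in delta than in alpha cells, was not called without delta replicate 2 (0 to 1). Of the called differences only that of Xbp1 between delta and beta cells changed direction, to -0.011 with median-ratio scaling; Creld2, P4hb, Sdf2l1 and Syvn1, not called as deposited, turned negative there too. Under all 18 alternatives 19 of the 27 genes lower in alpha than in beta cells kept the call where they were tested. Derl3, 1 of the 19, was not tested with the filter at 5 RPKM. The call was also kept by 21 of the 28 higher in delta than in alpha cells, and by 4 of the 13 higher and 5 of the 8 lower in delta than in beta cells. Genes higher in alpha than in beta cells and genes called for sex or its interaction numbered 0 in all alternatives run; without alpha replicate 3 the interaction could not be fitted. Over all tested genes the interaction had 80 higher and 8 lower calls with no filter and 0 as deposited. The labels give no shared replicate numbers, but 4 beta libraries carry title numbers that directly precede those of a delta or alpha library of the same sex. A replicate block of these pairs, added after seeing the data, gave 10 higher and 11 lower genes in delta than in beta cells, 24 lower in alpha than in beta and 27 higher in delta than in alpha cells as fixed terms, and 15, 9, 29 and 28 as a random effect. Deviations from the cell type means correlated at 0.269 to 0.464 within 3 pairs and at 0.001 within beta and delta replicate 1. The 2 delta libraries deviate from their own mean in mirror image, so the values of their 2 pairs are not separate evidence. The random effect had a consensus correlation within pairs of 0.432. The main fit left the libraries unpaired because the labels do not state pairs, and whether these pairs share islets was not tested. With 2 delta libraries, differences from delta cells rest on the spread of the other types. Derl3 and other genes near 1 RPKM rest on few reads.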
